A study of Mus musculus with 48 samples.

Results

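The 10 genes described here encode proteins that release, pump, buffer or sense calcium in neurons, with a kinase that acts on the signal for its release. They are the store release channels Itpr1, Ryr1, Ryr2 and Ryr3, the inositol trisphosphate kinase Itpka, the pumps Atp2a2, Atp2b1 and Atp2b2, and the calcium-binding proteins Calb1 and Hpca. They were picked by gene symbol from the 48795 genes of a count table of mouse striatum, without a threshold on any value. The choice was made with earlier results of these data known. Their counts set beside the share of all genes are thus a description and not an independent test. All 10 passed the filter on low counts, which left 19975 genes for testing.

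The table held 48 libraries of striatal tissue from C57BL/6 mice aged 6 months, 24 of them female and 24 male. Q140 mice carried 1 copy of a knock-in huntingtin allele with a long CAG repeat, a model of Huntington's disease (8 libraries). The other Q140 groups also carried 1 copy of the knock-in, together with 1 mutant copy of Msh3 (Q140 Msh3+/-, 8 libraries) or with no wild type copy (Q140 Msh3-/-, 8 libraries). Without the knock-in there were Msh3+/- (9 libraries), Msh3-/- (8 libraries) and wild type mice (7 libraries). Msh3 is a DNA mismatch repair gene that lengthening of CAG repeats in somatic tissue depends on, so the crosses ask how the Q140 profile differs on each Msh3 genotype. The labels do not describe the Msh3 allele and do not say that each library is a separate mouse, so the p-values measure the spread between these libraries.

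As background, most striatal neurons are medium spiny neurons, which fire in response to glutamate and dopamine and depend on tight control of calcium. Gq-coupled receptors activate phospholipase C, the inositol trisphosphate it makes opens the Itpr1 channel of the endoplasmic reticulum, and calcium itself opens the ryanodine receptors Ryr1, Ryr2 and Ryr3. Itpka turns inositol trisphosphate into a tetrakisphosphate, Atp2a2 (SERCA2) pumps calcium back into the store, Atp2b1 and Atp2b2 (PMCA1 and PMCA2) pump it out of the cell, Calb1 (calbindin) buffers it, and Hpca (hippocalcin) is a sensor that moves to membranes when calcium rises.

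On GRCm38 (GENCODE M21), the receptor genes lie at chr6:108213096-108551109 (Itpr1, plus strand), chr7:29003344-29125179 (Ryr1, minus), chr13:11553102-12106945 (Ryr2, minus) and chr2:112631355-113217096 (Ryr3, minus), and Itpka at chr2:119742337-119751263 (plus). The pump genes lie at chr5:122453513-122502225 (Atp2a2, minus), chr10:98914406-99026143 (Atp2b1, plus) and chr6:113743831-114042613 (Atp2b2, minus), and the calcium-binding proteins at chr4:15881264-15908064 (Calb1, plus) and chr4:129111570-129122036 (Hpca, minus). Exons of Itpr1, Ryr1, Ryr3 and Hpca overlap exons of a gene on the other strand that was also counted, namely Gm44101, Gm26604, Aven and Tmem54, which averaged 1.91, 1.34, 5.57 and 0.81 CPM. How strand was treated in the counting is not given in the sources used here, so reads of those stretches cannot be told apart.

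The RefSeq promoter table (GRCm38.p6) had entries for 6 of the 10 genes, with 250 bases before and 50 after each transcript start. Those genes were Itpka, Ryr1, Ryr2, Atp2b1, Atp2b2 and Hpca, with 11 windows between them. Itpr1, Ryr3, Atp2a2 and Calb1 had none. The 4 windows below belong to genes that were lower in Q140 and higher in Q140 Msh3-/- than in Q140. For each, the window nearest to the start of a principal GENCODE transcript is shown 5′ to 3′ on the strand of the gene, with capitals marking the GC box on either strand (GGGCGG or its complement CCGCCC).
Ryr1 (chr7:29125102-29125401, minus strand): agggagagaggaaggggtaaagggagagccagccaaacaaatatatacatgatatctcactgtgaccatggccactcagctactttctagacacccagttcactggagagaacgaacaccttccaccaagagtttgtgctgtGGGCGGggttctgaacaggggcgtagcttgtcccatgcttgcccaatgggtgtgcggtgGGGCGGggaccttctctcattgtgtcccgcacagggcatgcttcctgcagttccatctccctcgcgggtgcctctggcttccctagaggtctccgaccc
Itpka (chr2:119742087-119742386, plus strand): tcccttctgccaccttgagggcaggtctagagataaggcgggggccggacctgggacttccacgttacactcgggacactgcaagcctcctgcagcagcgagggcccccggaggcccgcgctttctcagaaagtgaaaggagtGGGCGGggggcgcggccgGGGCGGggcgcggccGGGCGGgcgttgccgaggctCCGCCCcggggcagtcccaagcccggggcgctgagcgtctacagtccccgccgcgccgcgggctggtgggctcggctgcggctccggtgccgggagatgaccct
Atp2b1 (chr10:98914902-98915201, plus strand): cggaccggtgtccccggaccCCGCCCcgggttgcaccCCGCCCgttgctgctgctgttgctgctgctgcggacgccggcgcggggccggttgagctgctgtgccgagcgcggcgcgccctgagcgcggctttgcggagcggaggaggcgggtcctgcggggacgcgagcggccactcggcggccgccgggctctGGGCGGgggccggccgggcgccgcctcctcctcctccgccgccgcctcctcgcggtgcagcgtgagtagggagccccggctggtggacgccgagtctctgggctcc
Hpca (chr4:129121698-129121997, minus strand): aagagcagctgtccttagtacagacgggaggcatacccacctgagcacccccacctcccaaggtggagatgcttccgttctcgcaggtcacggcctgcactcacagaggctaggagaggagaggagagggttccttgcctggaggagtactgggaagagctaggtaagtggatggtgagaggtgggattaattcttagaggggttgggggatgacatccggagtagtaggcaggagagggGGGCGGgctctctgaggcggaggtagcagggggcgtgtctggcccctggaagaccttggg
The GC box was in at least 1 window of all 6 genes, for which the share per gene over all genes was not computed. It was present in 9 of the 11 windows, against 35.7% of the 32851 windows of all genes. Base composition went with it, since the 4 windows shown were 56.7%, 73.7%, 79.3% and 60.3% G and C, against a median of 52.7% over all windows. The CRE half-site TGACG was in 1 of the 11 windows (the other Atp2b1 window) and in 20.8% of all windows. The full CRE TGACGTCA, which contains the half-site, was in 0 of the 11 and 1.79% of all windows. TATAAA was in 0 of the 11 and 13.6%, and the EGR1 motif GCGTGGGCG in 0 of the 11 and 0.612% (both strands were read in each case). These matches describe letters in the windows and were not set against any measurement of binding.

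Library totals ran from 33673410 to 52808289 counts, and Ryr1, the lowest of the 10 per length, had between 2356 and 11096 counts in a library. Msh3 itself averaged 77.0 ± 3.14 CPM (counts scaled to library size) in Q140 Msh3+/-, 125 ± 6.60 in Q140 Msh3-/-, 77.4 ± 4.74 in Msh3+/- and 120 ± 7.03 in Msh3-/-, against 32.1 ± 1.27 in Q140 and 31.0 ± 1.46 in wild type (SD). Reads of the gene were thus higher, in step with the labelled genotype, where Msh3 is mutant, and counts per gene do not show whether that RNA can be translated. Libraries are named by their labels throughout, with F or M for sex and a number. Markers of choroid plexus and ependyma summed to 6677 CPM in Q140 Msh3+/- F1 and 1109 CPM in wild type M2, with group medians between 247 and 288 CPM. Markers of cortical neurons summed to 399 CPM in Msh3+/- F5, with group medians between 195 and 222 CPM. Results for the 10 genes that rest on Q140 Msh3+/- F1 are given with and without it.

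**Figure D1:**
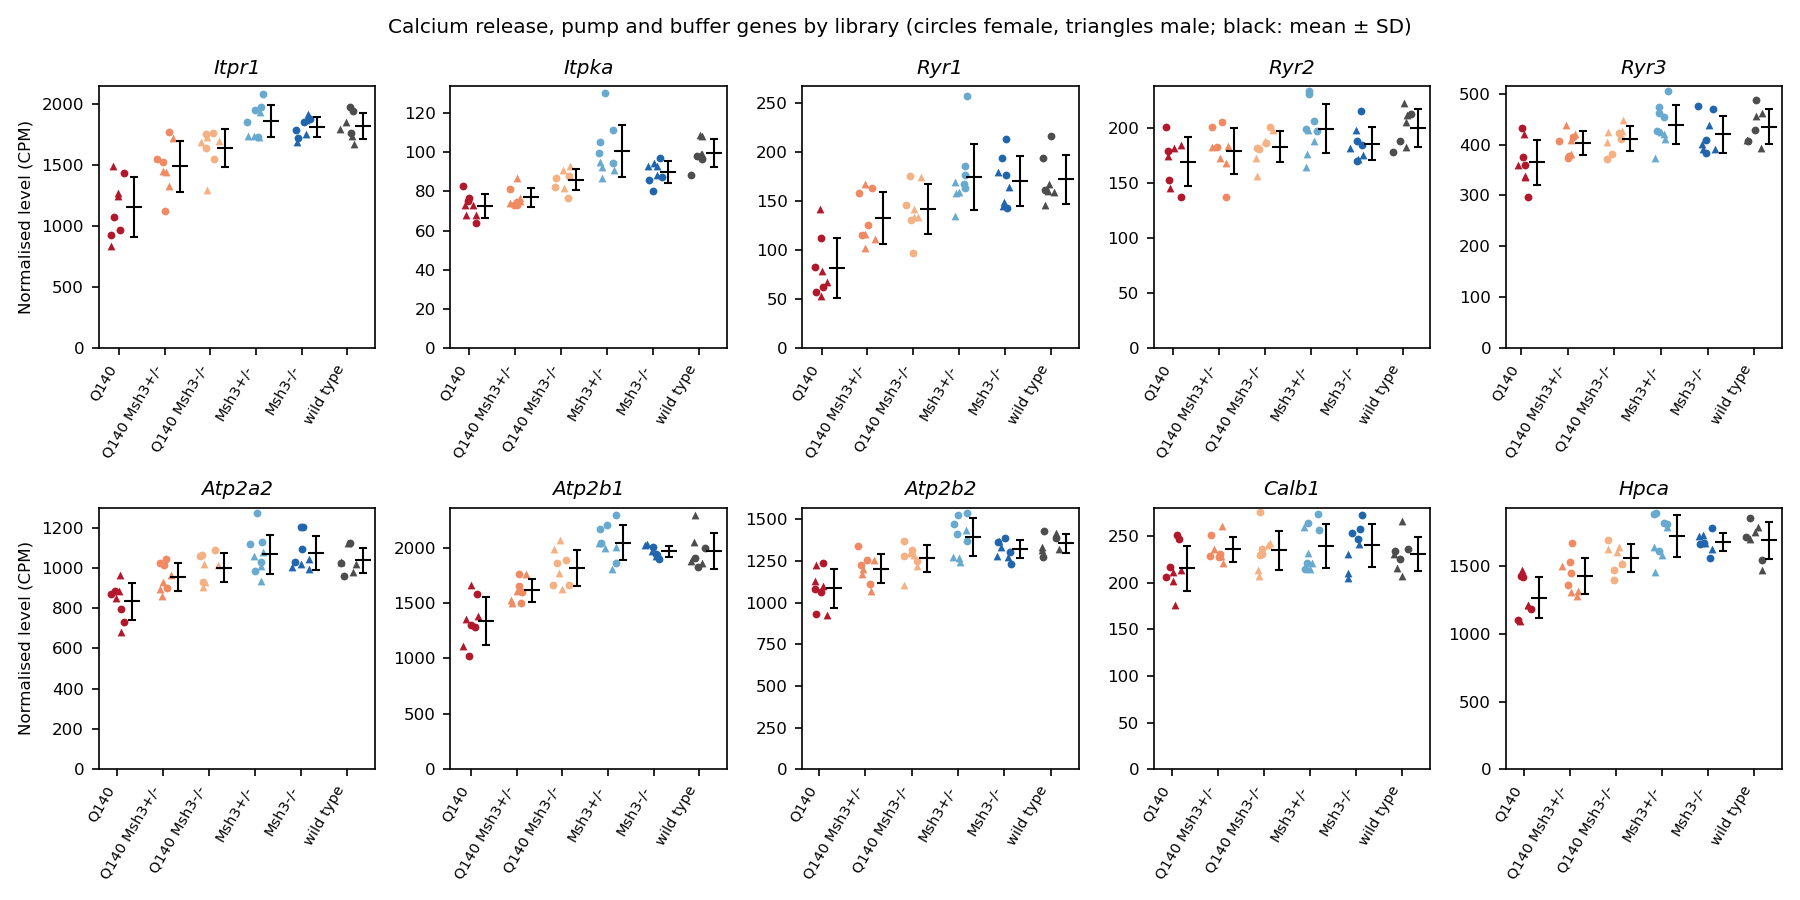
Normalised level (CPM) of each of the 10 genes in each library, by group, with circles for females, triangles for males and the mean ± SD beside each group. For 9 genes, all but Calb1, the Q140 group had the lowest mean, followed by Q140 Msh3+/-, Q140 Msh3-/- and then the 3 groups without Q140. The share of all genes with that order was not counted. None of the 10 was called between Q140 Msh3-/- and Q140 Msh3+/-.

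Levels per length were taken from the deposited FPKM values. Hpca had the highest level of the 10 in both groups, with 450 ± 45.5 FPKM in Q140 and 570 ± 41.3 FPKM in wild type (SD). Atp2b1 followed with 194 ± 26.6 FPKM in Q140 and 272 ± 20.3 FPKM in wild type, then Atp2a2 with 142 ± 12.2 FPKM in Q140 and 168 ± 8.80 FPKM in wild type. Ryr1 was the lowest, with 3.88 ± 1.37 FPKM in Q140 and 7.77 ± 1.12 FPKM in wild type. Among the ryanodine receptors Ryr3 was therefore the most abundant per length in wild type (22.6 FPKM), ahead of Ryr2 (11.7 FPKM) and Ryr1, and their ranges over libraries did not overlap. Atp2b2 and Itpr1 overlapped with each other in all 6 groups, as did Itpka and Calb1, which changed places. Calb1 was above Itpka in Q140, where they averaged 46.3 and 41.5 FPKM, while Itpka was above Calb1 in wild type, where they averaged 54.0 and 46.9 FPKM. The order did not follow Q140 alone. Calb1 was also above Itpka in Q140 Msh3+/-, in Q140 Msh3-/- and, barely, in Msh3-/- (48.68 and 48.64 FPKM). In Msh3+/- Itpka was above Calb1.

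**Figure D2:**
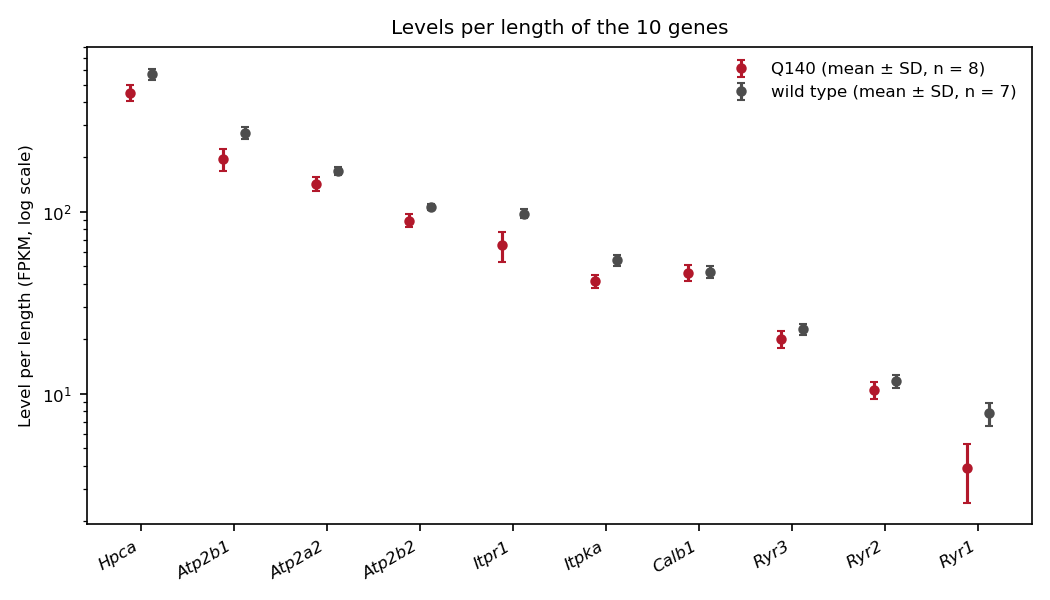
Level per length (FPKM, log scale) of the 10 genes in Q140 and wild type libraries, as mean ± SD, ordered by the wild type mean. Hpca is highest and Ryr1 lowest in both groups, and the Q140 mean lies under the wild type mean for each gene.

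In Q140 striatum 9 of the 10 genes fell against wild type and Calb1 did not pass the test. The adjusted p is from edgeR's quasi-likelihood test with Benjamini-Hochberg adjustment over all 19975 genes, with a threshold of 0.05. Over all genes tested 10.2% were called lower, 9.64% higher and 19.9% in either direction. The median log2 fold change was -0.37 over the 10 genes and 0.01 over all genes. The split of all calls depends on the scaling, with 1926 of 3969 higher under the TMM factors used here and 5076 of 6180 higher under library totals alone, where 8 of the 10 genes were still called lower, all but Ryr2 and Calb1. In 5 of the 10 (Itpr1, Itpka, Ryr1, Atp2b1 and Atp2b2) the ranges of the 2 groups did not overlap, which held for 3.52% of all genes. By mean wild type CPM the 10 lay between percentile 88.8 (Itpka) and 99.9 (Atp2b1) of the 19975 genes. Shares among genes of like level are not given here.

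Ryr1, the ryanodine receptor best known from skeletal muscle, had the largest fold change of the 10. Its level was 53.0, 72.9 and 141 CPM at the lowest, median and highest Q140 library, against 145, 161 and 217 CPM in wild type. Every Q140 library thus lay under every wild type library, although the highest, Q140 M4 at 141 CPM, came close to the lowest wild type one. The log2 fold change was -1.07 ± 0.16 (SE), or 0.475-fold, with an edgeR adjusted p of 1.9e-06.

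Itpr1, the inositol trisphosphate receptor of medium spiny neurons, followed. It had 832, 1159 and 1493 CPM at the lowest, median and highest Q140 library, against 1672, 1788 and 1972 CPM in wild type. Here too the groups were apart, with a wide spread among Q140 libraries (SD 243 CPM, against 109 CPM in wild type). The log2 fold change was -0.65 ± 0.09 (SE; edgeR adjusted p = 2.4e-07).

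The other ryanodine receptors fell by less. Ryr2, the cardiac type that neurons also make, had 137, 177 and 200 CPM in Q140 (lowest, median, highest), against 178, 205 and 223 CPM in wild type, and 4 of 8 Q140 libraries lay under all wild type ones. Ryr3 had 297, 360 and 432 CPM in Q140, against 393, 429 and 487 CPM in wild type, and 6 of 8 Q140 libraries lay under the wild type range. Their log2 fold changes were alike in size, at -0.25 ± 0.08 for Ryr2 (edgeR adjusted p = 0.016) and -0.25 ± 0.06 for Ryr3 (adjusted p = 0.0019).

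Itpka, the kinase that removes inositol trisphosphate, had 63.7, 73.0 and 82.8 CPM in Q140 (lowest, median, highest), against 88.2, 99.1 and 109 CPM in wild type. The groups were apart, and the spread within each was small (SD 6.04 CPM in Q140 and 7.07 CPM in wild type). Its log2 fold change was -0.46 ± 0.06 (SE; edgeR adjusted p = 1.4e-07).

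All 3 pumps fell. Atp2b1 had 1019, 1329 and 1659 CPM in Q140 (lowest, median, highest), against 1823, 1902 and 2297 CPM in wild type, with a log2 fold change of -0.56 ± 0.07 and the smallest adjusted p of the 10 (edgeR, 1.7e-08). Atp2b2 had 924, 1092 and 1236 CPM in Q140, against 1275, 1335 and 1428 CPM in wild type, with a log2 fold change of -0.32 ± 0.05 (adjusted p = 5.2e-06). For both plasma membrane pumps the groups did not overlap. Atp2a2, the store pump, had 680, 861 and 965 CPM in Q140, against 960, 1022 and 1122 CPM in wild type. Only its highest Q140 library entered the wild type range, and the log2 fold change was -0.32 ± 0.06 (edgeR adjusted p = 3.5e-05).

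The 2 calcium-binding proteins differed. Hpca had 1093, 1213 and 1470 CPM in Q140 (lowest, median, highest), against 1468, 1715 and 1857 CPM in wild type, with 7 of 8 Q140 libraries under the wild type range. Its log2 fold change was -0.42 ± 0.06 (edgeR adjusted p = 8.8e-07). Calb1, the buffer that marks matrix medium spiny neurons, had 176, 213 and 251 CPM in Q140, against 207, 231 and 266 CPM in wild type, and the ranges overlapped. Its log2 fold change was -0.11 with a 95% interval of -0.23 to 0.01 (edgeR adjusted p = 0.21).

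The Q140 libraries differed among themselves, and largely in the same way for most of the genes. Q140 M1 was the lowest of the 8 in 6 genes and Q140 F1 in the other 4. The highest was Q140 M4 in 5 genes, Q140 F3 in 3 and Q140 F4 in 2. Averaged over the 10 genes, the log2 difference from the wild type mean ran from -0.71 in Q140 M1 and -0.68 in Q140 F1 to -0.21 in Q140 F3 and -0.19 in Q140 M4. In single Q140 Msh3+/- libraries it ran from -0.31 to -0.10, and in Q140 Msh3-/- libraries from -0.23 to -0.03. Wild type libraries lay between -0.08 and 0.06, Msh3+/- libraries between -0.12 and 0.21 and Msh3-/- libraries between -0.09 and 0.09. Leaving out any 1 of the 15 Q140 and wild type libraries left 9 genes called, and the share of all genes called in those runs is not given here.

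Markers of medium spiny neurons moved with these genes. The 29 genes of a general marker list summed to between 14455 and 20714 CPM in Q140 libraries, against between 22802 and 25833 CPM in wild type, with Q140 M1 the lowest and Q140 M4 the highest of the Q140 libraries here too. Of the 29, 26 were called lower and 0 higher, led by Adcy5 and Scn4b. Markers of the Drd2 type of medium spiny neuron were lower in 6 of 7 tested, and those of the Drd1 type were lower in 2 and higher in 3 of 10. Astrocyte markers were lower in 8 of 16 and endothelial and mural markers in 7 of 16. In bulk tissue, fewer cells of a type and less RNA per cell cannot be told apart, and the part of these markers in the result was not tested.

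**Figure D3:**
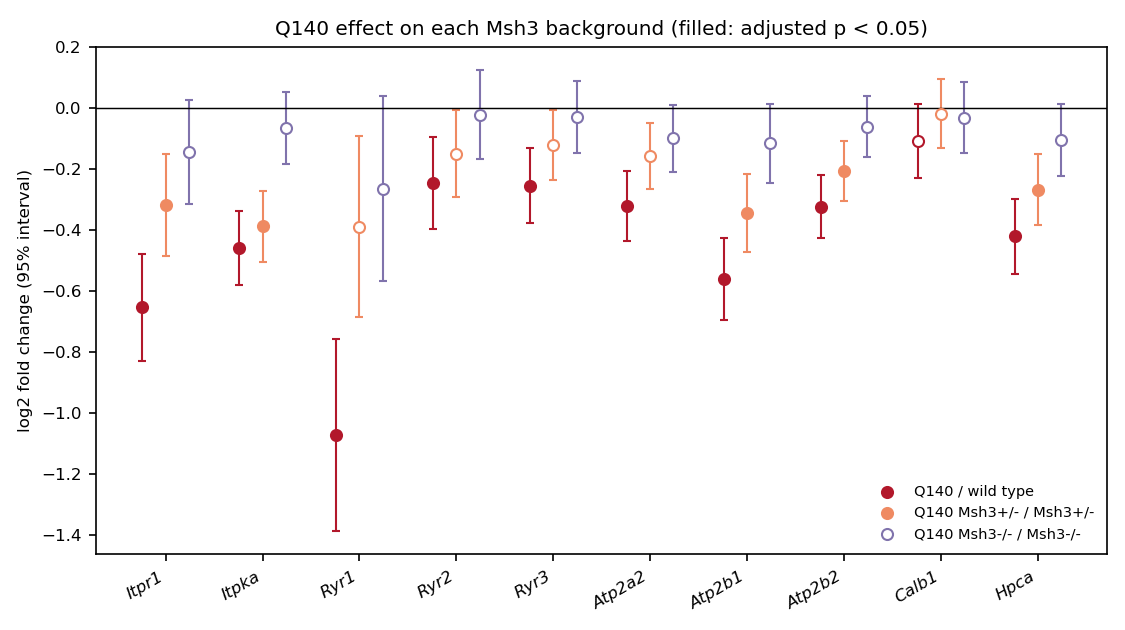
Log2 fold change of each gene, with its 95% interval, for the Q140 allele on each Msh3 background: Q140 over wild type (dark red), Q140 Msh3+/- over Msh3+/- (orange) and Q140 Msh3-/- over Msh3-/- (purple). Filled points passed an edgeR adjusted p of 0.05: 9, 5 and 0 genes from the first comparison to the last.

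Among Q140 mice, those with no wild type Msh3 copy had higher levels of most of the genes. In Q140 Msh3-/- against Q140, 8 of the 10 rose, Ryr2 and Calb1 did not pass the test, and none fell. Over all genes 6.85% were called higher, 5.04% lower and 11.9% in either direction, and the median log2 fold change was 0.25 over the 10 genes and -0.01 over all genes. Under library totals alone 804 of 4267 called genes were higher, against 1368 of 2374 under TMM, and 7 of the 10 were called higher. This comparison shares its Q140 libraries with the one against wild type, so a Q140 library with low values lowers the first and raises the second. In 0 of the 10 genes were the ranges of the groups apart, which held for 0.946% of all genes.

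Ryr1 again had the largest fold change. It had 96.2, 138 and 175 CPM in Q140 Msh3-/- (lowest, median, highest), against 53.0, 72.9 and 141 CPM in Q140, and 4 of 8 Q140 Msh3-/- libraries lay above all Q140 ones. The log2 fold change was 0.79 ± 0.15 (SE; edgeR adjusted p = 0.00036). Itpr1 had 1289, 1691 and 1756 CPM in Q140 Msh3-/-, against 832, 1159 and 1493 CPM in Q140. All but 1 Q140 Msh3-/- library, M4 at 1289 CPM, lay above the Q140 range, and the log2 fold change was 0.50 ± 0.08 (edgeR adjusted p = 5.1e-05). Ryr3 rose by a log2 of 0.17 ± 0.06 (adjusted p = 0.044), a call that was lost when any of 12 of the 16 libraries was left out, with adjusted p up to 0.14. Ryr2 had a log2 fold change of 0.11 with a 95% interval of -0.04 to 0.26 (adjusted p = 0.37).

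The pumps rose together in Q140 Msh3-/-. Atp2b1 had 1623, 1816 and 2064 CPM in Q140 Msh3-/- (lowest, median, highest), against 1019, 1329 and 1659 CPM in Q140, with 7 of 8 above the Q140 range and a log2 fold change of 0.44 ± 0.06 (edgeR adjusted p = 4.8e-06). Atp2a2 averaged 1001 ± 70.0 CPM in Q140 Msh3-/- and 833 ± 92.2 CPM in Q140 (SD, n = 8 each), a log2 fold change of 0.26 ± 0.06 (edgeR adjusted p = 0.00075). Atp2b2 averaged 1265 ± 79.2 CPM in Q140 Msh3-/- and 1086 ± 116 CPM in Q140, a log2 fold change of 0.22 ± 0.05 (edgeR adjusted p = 0.0019). Each pump was thus higher in Q140 Msh3-/- by more than the error of the difference, with some overlap of libraries.

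Itpka rose by a log2 of 0.25 ± 0.06 (edgeR adjusted p = 0.0033), with means of 85.9 ± 5.32 CPM in Q140 Msh3-/- and 72.5 ± 6.04 CPM in Q140. Hpca rose by 0.30 ± 0.06 (adjusted p = 0.00031), with 1559 ± 99.8 CPM in Q140 Msh3-/- and 1265 ± 151 CPM in Q140. Calb1 had a log2 fold change of 0.12 with a 95% interval of 0.01 to 0.24, which did not pass after adjustment (adjusted p = 0.17). The general medium spiny neuron markers were called higher in 27 of 29 in the same comparison, summing to between 20878 and 23597 CPM in Q140 Msh3-/- libraries, all above the 14455 to 20714 CPM of Q140 libraries. Markers of the Drd2 type were higher in 5 of 7, astrocyte markers in 5 of 16 and endothelial and mural markers in 2 of 16, with 0 lower in each list. Those of the Drd1 type were higher in 3 and lower in 1 of 10. Oligodendrocyte precursor markers were lower in 2 of 12, cortical neuron markers in 1 of 13 and cholinergic interneuron markers in 1 of 8, with 0 higher in each. Matrix markers were higher in 1 of 6, GABAergic interneuron markers in 1 of 10 and microglia markers in 1 of 16, with 0 lower in each. Over all genes 6.85% were called higher and 5.04% lower. Single calls in such short lists are not read as a change of a cell type. The part of these markers in the rise was not tested.

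Fewer genes passed with 1 mutant Msh3 copy. In Q140 Msh3+/- against Q140, 4 of the 10 rose, against 1.28% of all genes called higher, 0.696% lower and 1.98% in either direction. Ryr1 had 102, 121 and 168 CPM in Q140 Msh3+/- (lowest, median, highest), against 53.0, 72.9 and 141 CPM in Q140, a log2 fold change of 0.69 ± 0.15 (edgeR adjusted p = 0.015). Itpr1 had 1120, 1487 and 1764 CPM in Q140 Msh3+/-, against 832, 1159 and 1493 CPM in Q140, a log2 fold change of 0.36 ± 0.08 (adjusted p = 0.017). Both overlapped with Q140. The log2 fold change was 0.27 ± 0.06 for Atp2b1 (edgeR adjusted p = 0.019) and 0.19 ± 0.06 for Atp2a2 (adjusted p = 0.048). The 6 others had log2 fold changes between 0.08 for Ryr2 and 0.17 for Hpca, none called.

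Those 4 calls depended on the libraries fitted. Without Q140 Msh3+/- F1, the library with choroid plexus markers, 1 gene was called, and without it and Msh3+/- F5 also 1. The count was likewise 1 without Q140 M1 or without Q140 Msh3+/- M4, 2 without Q140 F2 and 0 without Q140 F1. The share of all genes called without those libraries is not given here. These counts thus do not show whether the 10 genes lost more calls than other genes. When the fit held the 2 groups alone, 0 of the 10 genes and 4 of all genes were called. The general medium spiny neuron markers were called higher in 14 of 29.

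**Figure D4:**
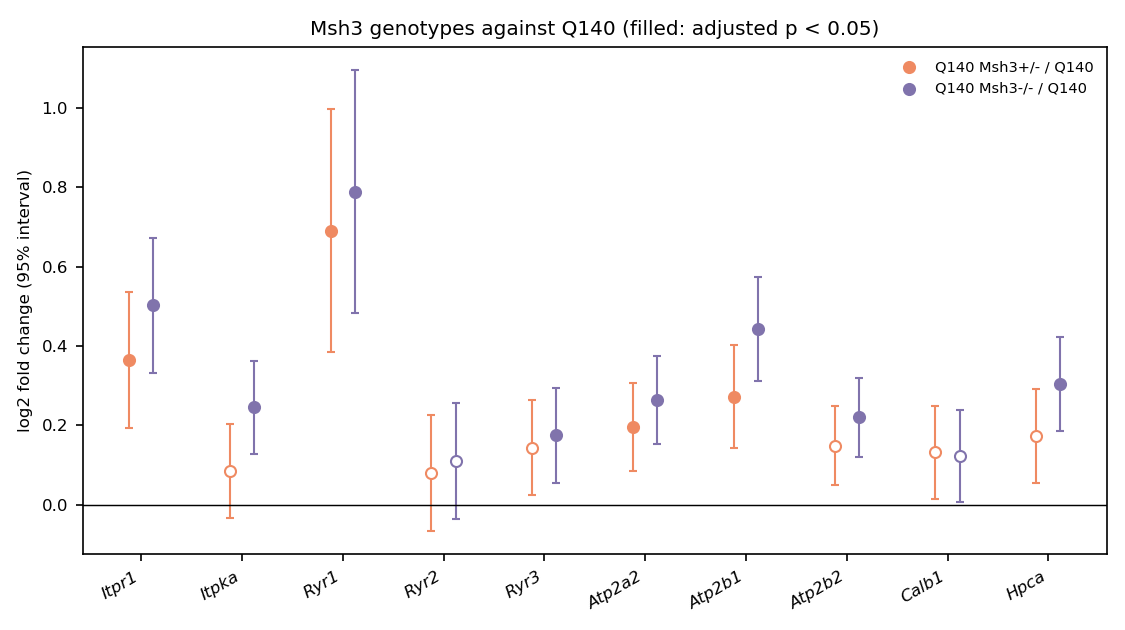
Log2 fold change of each gene, with its 95% interval, in Q140 Msh3+/- over Q140 (orange) and Q140 Msh3-/- over Q140 (purple). Filled points passed an edgeR adjusted p of 0.05: 4 genes in Q140 Msh3+/- and 8 in Q140 Msh3-/-, all of them above 0.

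Q140 Msh3-/- was then set directly against Q140 Msh3+/-. None of the 10 genes was called by edgeR, and 0.015% of all genes were (0.00501% higher and 0.01% lower). At an unadjusted p under 0.05 there were 3, namely Itpka with a log2 fold change of 0.16 (95% interval 0.04 to 0.28), Atp2b1 with 0.17 (0.04 to 0.30) and Hpca with 0.13 (0.01 to 0.25). The share of all genes under that threshold was not counted, here or in the comparisons below. Unadjusted counts thus do not show whether the 10 genes stand out. For Ryr1 the log2 fold change was 0.10 with an interval of -0.20 to 0.40. A dose effect of Msh3 between these 2 groups was therefore not detected for any of the 10, although 9 of them had the higher mean in Q140 Msh3-/-.

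Against wild type, Q140 Msh3+/- had 5 of the 10 genes lower and Q140 Msh3-/- had 0. Over all genes 2.23% were called lower, 1.54% higher and 3.77% in either direction in Q140 Msh3+/-, and 0.0901% lower, 0.11% higher and 0.2% in either direction in Q140 Msh3-/-. The 5 were Itpka with a log2 fold change of -0.38 ± 0.06 (edgeR adjusted p = 8.1e-05), Itpr1 with -0.29 ± 0.09 (0.049), Atp2b1 with -0.29 ± 0.07 (0.0066), Hpca with -0.25 ± 0.06 (0.011) and Atp2b2 with -0.18 ± 0.05 (0.041). Itpka and Atp2b1 were the ones whose ranges did not overlap, which held for 0.736% of all genes. The Itpr1 and Atp2b2 calls were each near the threshold: Itpr1 was lost without any of 13 of the 15 libraries and Atp2b2 without any of 12, while Itpka, Atp2b1 and Hpca held without each library. With a plate row covariate Itpka and Atp2b1 were called and Hpca was not (adjusted p = 0.074), and with females alone 0 of the 10 were called. For those 2 settings the share of all genes called is not given here. The general medium spiny neuron markers were lower in 16 of 29 in Q140 Msh3+/- against wild type, and their part was not tested. In Q140 Msh3-/- against wild type 1 gene had an unadjusted p under 0.05, Itpka, with a log2 fold change of -0.22 and a 95% interval of -0.34 to -0.09 (edgeR adjusted p = 0.16). The interval for Ryr1 ran from -0.60 to 0.03 and that for Itpr1 from -0.33 to 0.02, so falls of up to those sizes lie within the intervals.

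Each Q140 group was also compared with the mice of its own Msh3 genotype. In Q140 Msh3+/- against Msh3+/- 5 of the 10 fell, against 3.49% of all genes called lower, 2.96% higher and 6.45% in either direction. These were Itpka (log2 fold change -0.39 ± 0.06), Atp2b1 (-0.34 ± 0.06), Itpr1 (-0.32 ± 0.08), Hpca (-0.27 ± 0.06) and Atp2b2 (-0.21 ± 0.05), with edgeR adjusted p between 1.0e-05 and 0.012. Atp2b1 was the 1 gene whose ranges were apart, at 1501 to 1758 CPM in Q140 Msh3+/- and 1803 to 2293 CPM in Msh3+/-, which held for 0.586% of all genes. The general medium spiny neuron markers were lower in 22 of 29 in that comparison. Of the choroid plexus and ependyma markers, 10 of 15 were higher in the fit that held Q140 Msh3+/- F1. Their sum was 6677 CPM in that library, while group medians were 259 CPM in Q140 Msh3+/- and 247 CPM in Msh3+/-. That marker count was not made without Q140 Msh3+/- F1. In Q140 Msh3-/- against Msh3-/-, 0 of the 10 were called by edgeR and 0 had an unadjusted p under 0.05, with 0.025% of all genes called lower, 0.0501% higher and 0.0751% in either direction, and none of the 10 had ranges apart (0.0651% of all genes). All 10 values were below 0, from -0.02 for Ryr2 to -0.26 for Ryr1, whose 95% interval ran from -0.57 to 0.04.

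Whether the Q140 effect differs with Msh3 was tested as an interaction, the log2 fold change of Q140 on the mutant Msh3 background minus that on wild type Msh3. With Msh3-/-, 6 of the 10 passed and all 6 were positive, a smaller fall on the Msh3-/- background, against 1.67% of all genes called higher, 0.721% lower and 2.39% in either direction. The interaction was 0.81 ± 0.22 for Ryr1 (edgeR adjusted p = 0.035), 0.51 ± 0.12 for Itpr1 (0.015), 0.45 ± 0.09 for Atp2b1 (0.0046), 0.39 ± 0.08 for Itpka (0.006), 0.32 ± 0.08 for Hpca (0.032) and 0.26 ± 0.07 for Atp2b2 (0.036). The value for Itpka also holds its lower level in Msh3-/- than in wild type mice (log2 fold change -0.15, not called). Its log2 fold change in Q140 Msh3-/- against Q140 was 0.25. Itpr1, Itpka and Atp2b1 held without each of the 31 libraries. Ryr1, Atp2b2 and Hpca were lost in 11, 10 and 9 of the 31, and the count was 3 without Q140 F1, Q140 F2, Q140 M1, Q140 Msh3-/- F2 or wild type F1. With a covariate for plate row (from the well address) 0 passed, and with males alone 1 and females alone 0. The share of all genes called in those runs is not given here. These counts thus do not show whether the 10 genes differ from other genes. Of the general medium spiny neuron markers 14 of 29 were called higher for the same interaction, and of the Drd2 type 3 of 7, and their part was not tested. Ryr2, Ryr3 and Atp2a2 had interactions of 0.22, 0.23 and 0.22 that did not pass after adjustment, and that of Calb1 was 0.08 with an interval of -0.09 to 0.24.

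With Msh3+/-, 0 of the 10 interactions were called by edgeR, as for all genes, while DESeq2 called 0 of the 10 and 19 of all genes. Unadjusted, 4 had a p under 0.05 (Itpr1, Ryr1, Atp2a2 and Atp2b1), and the share of all genes under that threshold was not counted. Ryr1 had the largest, 0.68 with a 95% interval of 0.25 to 1.11, and it passed the threshold when Q140 M4 was left out.

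In mice without Q140, the Msh3 genotype alone went with no call among the 10 genes. Msh3+/- against wild type gave 0 calls by edgeR and 0 genes at an unadjusted p under 0.05, with 0.01% of all genes called. Log2 fold changes ran from -0.02 for Ryr2 to 0.06 for Atp2b1, and the widest interval was that of Ryr1, -0.30 to 0.31. Msh3-/- against wild type also gave 0 calls, with 0.03% of all genes called and ranges that overlapped for all 10 (apart for 0.0551% of all genes), and 1 gene at an unadjusted p under 0.05. That gene was Itpka, with 80.1, 90.8 and 97.2 CPM in Msh3-/- (lowest, median, highest), against 88.2, 99.1 and 109 CPM in wild type, a log2 fold change of -0.15 with a 95% interval of -0.27 to -0.03.

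The sexes were compared for the Q140 effect. The difference, females minus males, passed for 0 of the 10 genes and 0 of all genes by edgeR, and 1 gene had an unadjusted p under 0.05. This was Itpka, with a log2 fold change of Q140 over wild type of -0.34 in females and -0.56 in males, a difference of 0.22 (95% interval 0.01 to 0.43). For Ryr1 the log2 fold changes were -1.28 in females and -0.89 in males, with a difference of -0.39 and an interval of -1.04 to 0.26.

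The genes also varied together from library to library within groups. After the mean of each group and sex was removed from log2 CPM, the 45 pairs of genes had a median Pearson r of 0.49 over 48 libraries, and 22 pairs were above 0.5. The libraries share these values' scaling, and the r is a description with no test. The highest was that of the plasma membrane pumps, Atp2b1 with Atp2b2, at 0.87, and Itpr1 reached 0.84 with Atp2b2 and 0.82 with Atp2b1. Calb1 and Itpka had no r above 0.5 with any of the others. Itpka had its highest, 0.31, with Hpca, and its lowest, -0.24, with Ryr2. The kinase fell in Q140 like the channels and pumps, while its r with each of them within groups was low or below 0.

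**Figure D5:**
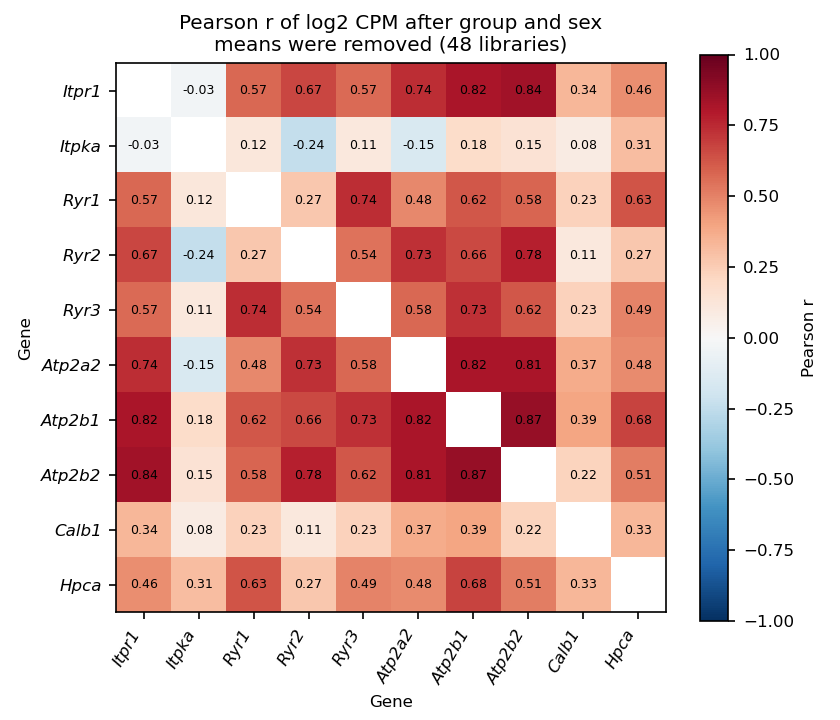
Pearson r between each pair of the 10 genes, for log2 CPM over 48 libraries after the means of group and sex were removed (colour scale from -1 to 1). Itpr1, Atp2a2, Atp2b1 and Atp2b2 have high r with each other, up to 0.87, while the Itpka and Calb1 rows stay under 0.5.

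Among all 10051 genes with a symbol and a mean log2 CPM no lower than 3, those most like each gene by the same measure were listed. For Itpr1 they included Prkcb (r = 0.91) and Psd3 (0.90). Atp2b1 went with the phospholipase C gene Plcb1 (0.94), the phosphodiesterase gene Pde10a (0.93) and Rgs7bp (0.91), Atp2b2 with Myh10 (0.90) and Plcb1 (0.88), and Atp2a2 with Aff3 (0.89), Dlg2 (0.88) and Rab6b (0.88). Ryr1 was nearest to Ptprv (0.89), the medium spiny neuron gene Rgs9 (0.83) and Adgrb1 (0.82), Ryr2 to the sodium channel gene Scn8a (0.89), Adcy1 (0.87) and Pcdh7 (0.85), and Ryr3 to Rbms1 (0.79), Rgs9 (0.77) and Fnbp1l (0.77). Hpca was nearest to Lrrc10b (0.87), Sept5 (0.86) and Rasd2 (0.86). The nearest genes to Itpka (Pianp, 0.76) and Calb1 (Rgs10, 0.68) were less like them than these.

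A wider list of 76 calcium-handling genes, of which 72 were tested, shows the setting of the 10. In Q140 against wild type 20 fell and 6 rose, where 10.2% of all genes were called lower and 9.64% higher, with a median log2 fold change of -0.04. Those that fell with the smallest p included Plcb1, which makes inositol trisphosphate (-0.45 ± 0.06, edgeR adjusted p = 1.3e-07), the calmodulin-binding Pcp4 (-0.53 ± 0.08, adjusted p = 1.9e-06) and the sodium-calcium exchanger Slc8a2 (-0.37 ± 0.06, adjusted p = 2.8e-06). Those that rose were led by the mitochondrial uniporter Mcu (0.25 ± 0.05, adjusted p = 0.00022), the ryanodine receptor-binding Fkbp1b (0.40 ± 0.10, adjusted p = 0.0023), the uniporter regulator Micu2 (0.14 ± 0.04) and the inositol phosphatase Impa1 (0.11 ± 0.03). The Impa1 call was lost without wild type F3 (adjusted p = 0.065). Under library totals alone 11 fell and 17 rose, so the balance of directions on the wider list depends on the scaling.

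In Q140 Msh3-/- against Q140, 13 of the 72 rose and 4 fell, where 6.85% of all genes were called higher and 5.04% lower, with a median log2 fold change of 0.03. The calcium-binding Kcnip3 (0.26 ± 0.05), Plcb1 (0.29 ± 0.06) and the store calcium sensor Stim2 (0.17 ± 0.03) were among those that rose with the smallest p, with edgeR adjusted p between 0.00027 and 0.00051. Fkbp1b (-0.42 ± 0.09), Micu2 (-0.13 ± 0.04), the neuronal sensor Vsnl1 (-0.35 ± 0.11) and S100b (-0.14 ± 0.04) fell. The Vsnl1 call was lost without any of 7 of the 16 libraries (adjusted p up to 0.074), S100b without any of 4 (up to 0.12) and Micu2 without Q140 F1 or Q140 M1 (up to 0.083), and the number that fell was 1 without Q140 F1 and 2 without Q140 M1 or Q140 Msh3-/- M3. Under library totals alone 9 rose and 10 fell. In Q140 Msh3+/- against Q140, 0 of the 72 were called by edgeR, where 1.98% of all genes were. The interaction with Msh3-/- was called for 3 of the 72, Slc8a2, Plcb1 and Pcp4, all positive, where 2.39% of all genes were called.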

How the data were processed

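The authors sequenced RNA of striatum after RNeasy extraction and TruSeq stranded library preparation, per the labels' protocols. STAR 2.7.5c, SAMtools 1.10, HTSeq 0.12.3 and the builds GRCm38 and mm10 are listed in the submitters' processing notes; the annotation release and strand setting are not given in the sources used here. The deposited count table holds whole read counts per gene with no scaling between libraries. The deposited FPKM table holds the authors' FPKM values, scaled to gene length and library size, and was used for levels per length and as an alternative. Groups, sexes and replicate numbers came from the labels. The genes and lists were chosen with earlier results of these data known.

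The model for the counts was edgeR 4.0.16 (R 4.3.3), with filterByExpr (minimum count 10, minimum total 15), TMM scaling (factors 0.956 to 1.09), robust glmQLFit on group means plus sex over all 48 libraries, and two-sided glmQLFTest contrasts with Benjamini-Hochberg adjustment over 19975 genes. Genes not tested held 0.0383% of counts. The sex difference used a mean for each group and sex. SE and 95% intervals are those of the fitted log2 fold changes. CPM values carry the TMM factors. Between-library r used log2 CPM with a prior count of 2. Alternatives used DESeq2 1.42.0, limma 3.58.1, other scalings, filters, covariates, single sexes and left-out libraries. The fit was tested on simulated data. Named genes were all 10 members, Msh3, up to 4 called genes per direction of the wider list by smallest p, 2 called genes per marker list, and the 3 genes with the highest r to each member; some genes that this rule names are not reported here. Symbols that a spreadsheet had turned into dates were restored from gene IDs.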

Additional observations from a re-analysis of the deposited data

Results flagged for a closer look

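In 60 sets of values (10 genes in 6 groups), a single library far from the rest of its group was found in 2; chance alone flags about 1 in 20 such sets. Itpr1 was 1289 CPM in Q140 Msh3-/- M4, against 1543 CPM in the next lowest library of that group. That library was also the lowest of its group for Ryr2, Atp2a2, Atp2b1 and Atp2b2. Ryr1 was 257 CPM in Msh3+/- F1, against 185 CPM in the next highest library of that group, and Msh3+/- F1 was also the highest of its group for Itpr1, Ryr3, Atp2a2 and Atp2b2.

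The Q140 effect differed between the Msh3-/- and wild type Msh3 backgrounds, by the edgeR interaction test, for 6 genes. Over all genes 1.67% were called higher, 0.721% lower and 2.39% in either direction. The count was lower with a covariate for plate row and with either sex alone. On the log2 scale the difference was 0.51 for Itpr1, 0.39 for Itpka, 0.81 for Ryr1, 0.45 for Atp2b1, 0.26 for Atp2b2 and 0.32 for Hpca. The adjusted p of these ranged over single left-out libraries from 0.00031 to 0.073.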

How the results depend on the processing

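In Q140 against wild type, 9 of the 10 genes were called, and the alternatives called 7 (females only) to 9. No called fold change changed sign under an alternative. The counts that moved by more than 1.5 times were these. In Q140 Msh3-/- against Q140 (8 called) there were 5 with females only and 3 with males only. In Q140 Msh3+/- against Q140 (4 called) there were 1 with plate column as a covariate, 0 with females only, 0 with males only, 0 with the fit limited to the groups compared, and 1 without both Q140 Msh3+/- F1 and Msh3+/- F5, an alternative added after seeing the data. In Q140 Msh3+/- against wild type (5 called) there were 3 with no count filter, 2 with plate row as a covariate, 0 with females only, 2 with males only and 3 with limma on log2(FPKM + 0.1) and no filter. For Q140 Msh3-/- against wild type (0 called) there was 1 with plate row and 1 with the groups compared alone. In Q140 Msh3+/- against Msh3+/- (5 called) there were 3 with plate row, 2 with females only and 0 with males only. The interaction with Msh3-/- (6 called) gave 0 with plate row, 0 with females only and 1 with males only. Runs of a single sex have fewer libraries, and for the other settings the cause was not tested. The share of all genes called under each setting is not given beside these counts. They thus do not show whether the 10 genes moved more than other genes.

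Over single left-out libraries the count was 9 in each case in Q140 against wild type and 0 in each case for the comparisons with 0 calls other than the interaction with Msh3+/-. It ran from 7 to 8 in Q140 Msh3-/- against Q140, 0 to 6 in Q140 Msh3+/- against Q140, 3 to 5 in Q140 Msh3+/- against wild type, 5 to 6 in Q140 Msh3+/- against Msh3+/-, 3 to 7 for the interaction with Msh3-/- and 0 to 1 for that with Msh3+/-. Among all genes, library totals alone moved the higher share of calls in Q140 Msh3+/- against wild type (1060 of 1348, against 307 of 753), Q140 Msh3+/- against Q140 (229 of 724, against 256 of 395), Q140 Msh3+/- against Msh3+/- (1796 of 2209, against 592 of 1289) and the interaction with Msh3-/- (254 of 1029, against 334 of 478). With females only, males only and limma on log2(FPKM + 0.1), the calls among all genes were 1641, 1690 and 6030 in Q140 against wild type (3969 given) and 747, 561 and 4280 in Q140 Msh3-/- against Q140 (2374 given). DESeq2 also called 0 of the 10 in each comparison where edgeR called 0, the sex difference aside, for which only the scalings and count filters were run.

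The alternatives for the wider list were chosen after seeing the data. In Q140 against wild type (6 higher, 20 lower) there were 18 higher and 11 lower with limma on log2(FPKM + 0.1) or log2(FPKM + 1), 16 and 8 with log2(FPKM + 0.1) and no filter, 5 and 9 with females only, 1 and 11 with males only, and 3 higher with the groups compared alone. For Q140 Msh3-/- against Q140 (13 higher, 4 lower) females gave 2 higher and 1 lower, males 5 and 0, plate row 2 lower, limma on log2(FPKM + 0.1) or log2(FPKM + 1) 11 lower, and log2(FPKM + 0.1) with no filter 8 higher and 10 lower.

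Libraries of the same number and sex in different groups did not pair: 39 of 115 such pairs had a correlation of deviations above 0.1, the lowest was -0.32, and 13 of 48 libraries correlated best with their own number. With a replicate block the count was 3 in Q140 Msh3+/- against wild type, 9 in Q140 against wild type and 7 in Q140 Msh3-/- against Q140. The share of all genes called in that run is not given here. Library codes share a stem whose meaning the labels do not give, and 13 of 27 stems occur in more than 1 group (32 libraries). Some libraries of 1 group also share a stem: Q140 F1 and F2, Q140 Msh3-/- M2 and M3, and Msh3+/- M1 and M2. So do Msh3-/- F1 and F2, and Msh3-/- F3 and F4. Whether such libraries within a group are independent was not tested. The 23 pairs of libraries that share a stem across groups had a median correlation of deviations of 0.239, against -0.0125 for pairs of different stems. With the stem as a random block in limma-voom the counts were the same in each comparison but Q140 Msh3+/- against Msh3+/-, with 6. For that run, too, the share of all genes called is not given here. The lowest count of any of the 10 genes in a library was 2356 (Ryr1), so for these genes counting error was small beside the spread between libraries. Single-sex runs rest on at most 5 libraries a group.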
